A study of Mus musculus with 4 samples.

Results

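The o-organoid array was set against the crypt array, 2 of the 4 arrays of a mouse series that also holds arrays of whole intestine and of a second crypt-villus organoid named y-organoid. The o-organoid RNA came from a crypt-villus organoid, an epithelial structure grown in culture, and was labelled from 40 ng. The crypt RNA came from crypts, the epithelial pits at the base of the intestinal villi, and was labelled from 20 ng. Both samples were total RNA, and the mice were wild type of strain C57/BL6. The series title concerns acetylcholine made outside neurons and its part in the growth of intestinal stem cells that carry Lgr5. What the letter o stands for, the number and age of the mice, the culture medium and the number of passages are not given in the sources used here. Each side is 1 array, so differences describe arrays, carry no test, and group, RNA input and culture cannot be told apart.

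The intestinal epithelium renews itself from stem cells at the crypt base, which depend on Wnt, Notch and EGF signals and are opposed by BMP signals. Their daughters divide, move up the villus and become absorptive enterocytes or secretory Paneth, goblet, enteroendocrine and tuft cells. In culture the epithelium is cut off from the connective tissue, blood cells and gut contents that surround it in the animal.

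All 43020 spots of each array that are not controls entered the comparison. They belong to 39429 probes of 30118 named genes, of which 17203 could be read above background on 1 or both arrays. A signal is the log2 ratio of a spot's intensity to its array's 75th percentile, and a difference is the o-organoid signal minus the crypt signal. Genes above background on both arrays numbered 15015, with a median difference of -0.03, an interquartile range from -0.55 to 0.44, and 79.9% of them within 2-fold. Here and below, read only on o-organoid or only on crypt refers to the 2 arrays compared, whatever the other arrays read. A further 1494 genes were above background only on the o-organoid array and 694 only on the crypt array. Such a gene has a bound, written as at least N-fold: the bright side was set against the dim side's signal, or, if that was lower, against the array's detection limit (its lowest signal well above background), -5.00 for o-organoid and -4.52 for crypt.

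The o-organoid signal was higher by 2-fold or more for 1462 genes (8.5% of those tested) and lower for 2341 (13.6%). At least 4-fold higher were 301 (1.75%) and lower 756 (4.39%). These shares are the background for each list below. Higher genes made up 38.4% of the 2-fold calls and 28.5% of the 4-fold calls. With the percentile taken over probes above background on both arrays, which moved the median of all genes by 0.19, those shares were 53.3% and 38.1%, and with the authors' deposited value table, a shift of 0.12, they were 48.6% and 34.7%. The distribution of differences was longer on the lower side. Repeated spots of a probe gave a difference a technical SD of 0.14, which was 0.24 for signals below -2 and 0.08 above 2, and which leaves out labelling, hybridisation and animals. A second probe could be read for 119 genes past 4-fold: for 100 it passed 2-fold in that direction, and for 7 its sign was opposite.

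**Figure D1:**
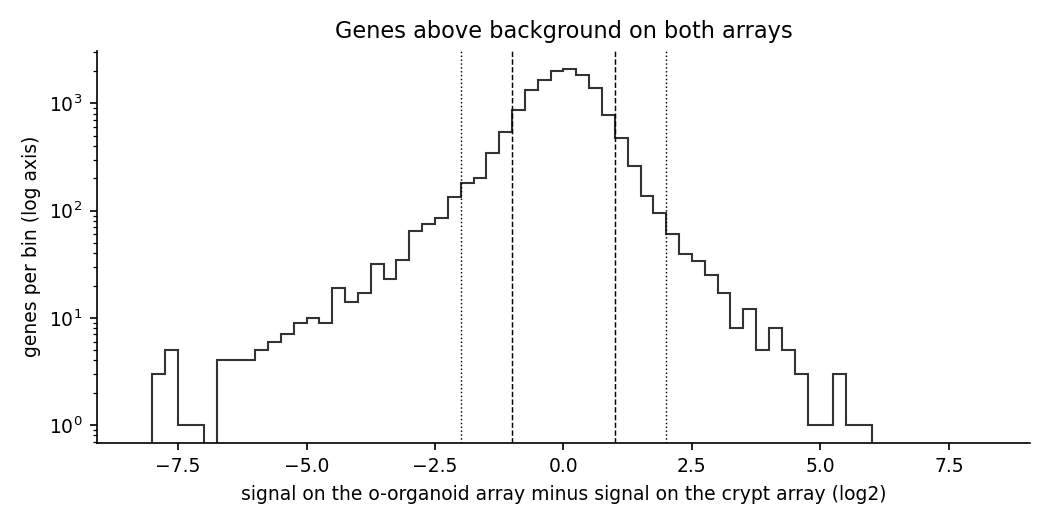
Number of genes (log axis) per bin of the o-organoid minus crypt difference (log2) for genes above background on both arrays. Dashed lines mark 2-fold and dotted lines 4-fold; the lower side reaches -8.00 (Reg3b) and the higher side 5.84 (Pip5k1a, whose other probes do not share it).

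Labels were set against markers. Of 7 epithelial markers 6 lay within 2-fold, Epcam, Cdh1, Krt8, Krt18, Cdh17 and Lgals4, and Vil1 was 4.66-fold lower. Epcam, an epithelial adhesion molecule, stood at 3.77 in o-organoid and 3.72 in crypt, and the cadherin Cdh1 at 2.95 and 3.24. Of 17 markers of stroma and smooth muscle, 13 were above background on neither array, among them Col1a1, Dcn, Pdgfra, Acta2, Des and Myh11. The array labelled crypt also carried enterocyte transcripts near their level on the whole intestine array, with Lct at 7.20 on the crypt and 6.77 on the intestine array and Fabp2 at 9.04 and 9.48. Of the sex-linked transcripts, Xist was above background only on the intestine array (-1.17), and Ddx3y and Eif2s3y on every array but that one. By these transcripts the intestine array differs in sex from the others, so its levels here and below come from other mice. Blood cell markers differed between the arrays. Of 20 such markers, 7 could be read for o-organoid and 14 for crypt. Their summed linear signal was 13.7 times the 75th percentile for o-organoid and 38.4 times for crypt. The sums take in Itgam, whose difference of -1.12 became 1.16 without repeat probes, so they depend in part on its probe. Gzma and Gzmb, granzymes of cytotoxic lymphocytes, Cd7, Cd3g, Cd8a and the common leukocyte antigen Ptprc were above background only on the crypt array. The myeloid genes Csf1r (0.49) and Adgre1 (-0.13) lay within 2-fold. Gzma stood at -5.54, against 3.01 in crypt, a difference of at least 257-fold. In RNA from mixed cells, fewer cells of a type and less RNA per cell cannot be told apart.

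**Figure D2:**
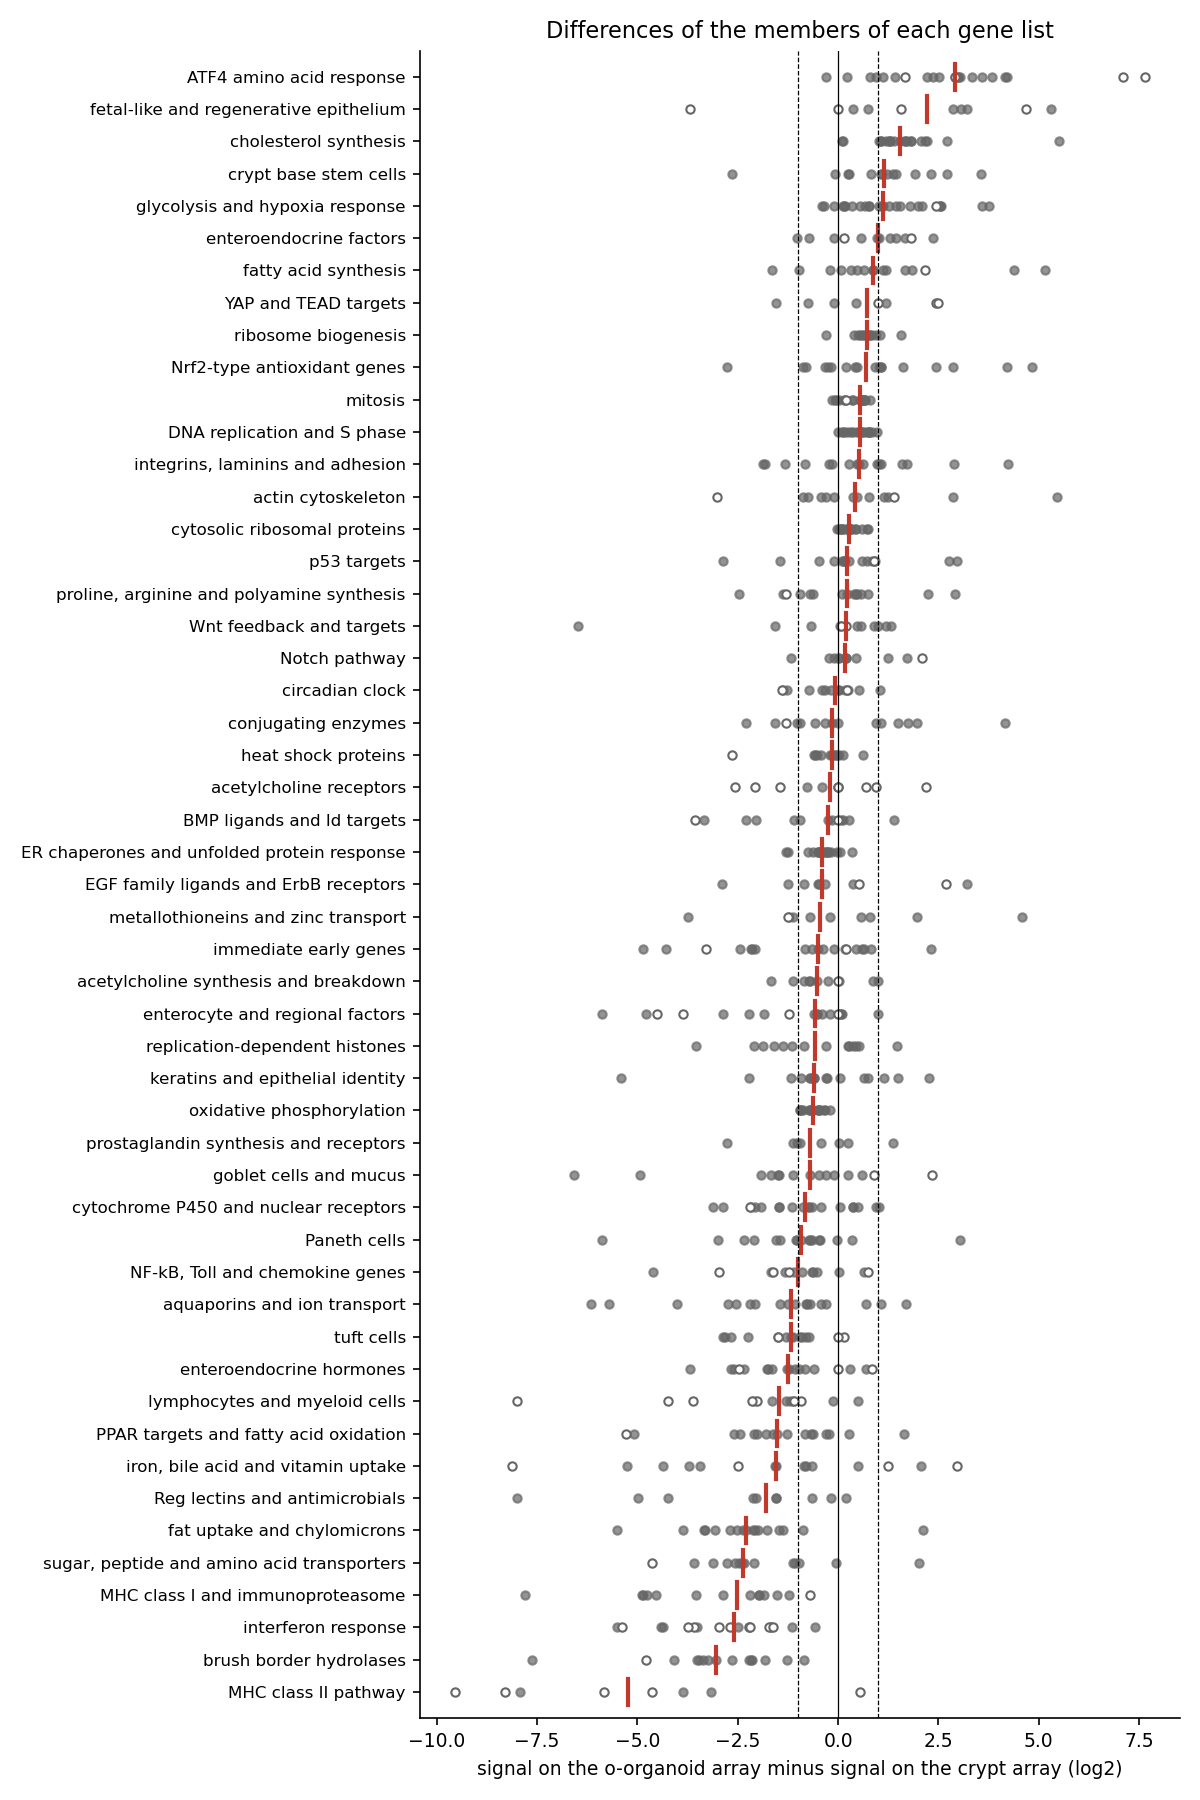
Difference of each member (o-organoid minus crypt, log2) for gene lists with at least 8 members above background, ordered by median (red bar). Filled points were above background on both arrays, open points are bounds, and dashed lines mark 2-fold; amino acid response genes lie at the top (median 2.92) and class II histocompatibility genes at the bottom (median -5.23).

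Genes of the amino acid response were higher on the o-organoid array than on the crypt array. ATF4 is a transcription factor whose protein is made when amino acids run short or other stress slows translation, and its targets import and build amino acids. Of the 22 members, 18 were at least 2-fold higher and 0 lower, with a median of 2.92 against 0 over all genes tested. Chac1, which degrades glutathione, stood at 3.13 on the o-organoid array and was not above background on the crypt array (-5.24), at least 201-fold higher. Stc2, a secreted stanniocalcin, was likewise read at 2.58 and -6.65, at least 138-fold higher. Of the 2 arrays compared, both were thus read on the o-organoid array alone. The serine synthesis enzyme Psat1 stood at 4.23 against 0.03 on the crypt array, 18.4-fold higher. Vldlr, a lipoprotein receptor, was 14.3-fold higher (1.34, against -2.50) and the transcription factor Atf5 12.1-fold. Pycr1 and Nupr1, also amino acid response genes, stood above crypt on the y-organoid array too (-0.89 against -3.62, and 6.26 against 1.45). Other members were not compared there, and whether the response is particular to o-organoid was not tested.

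Slc7a5, which carries large neutral amino acids, was 17.7-fold higher by its brightest probe, while its other probe differed by 1.22. Serine and one-carbon enzymes, named after their values were seen, were higher too. Phgdh, the entry enzyme of serine synthesis, stood at 4.87 against 1.54 on the crypt array, and its other probe differed by 3.18. Mthfd2 was 7.93-fold, Psph 5.15-fold, Shmt2 4.64-fold and Asns, the asparagine synthetase, 5.67-fold higher. The message of Atf4 itself was 1.74-fold higher, within the 2-fold limit. Slc3a2, the partner chain of Slc7a5, differed by -0.31.

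**Figure D3:**
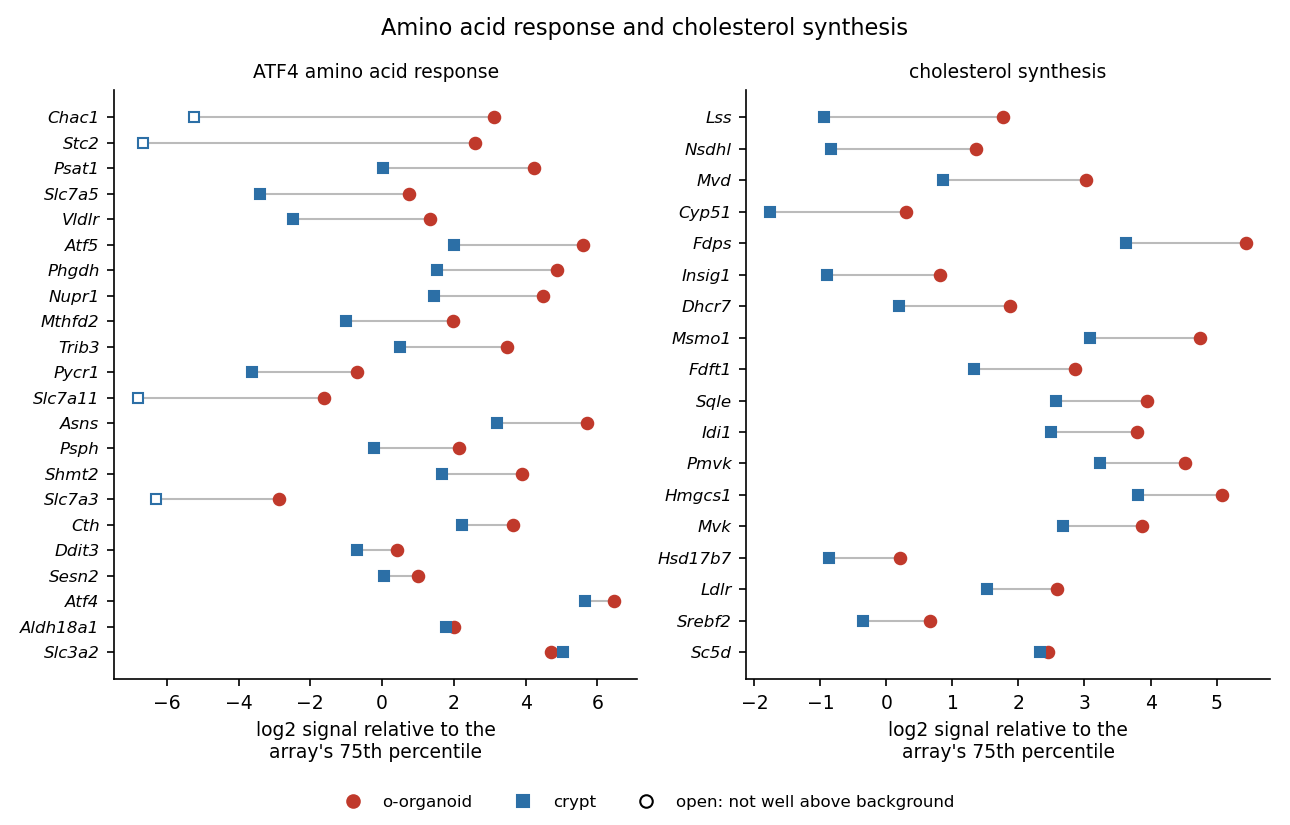
Signal (log2, relative to the array's 75th percentile) of members of the amino acid response and cholesterol synthesis lists, red circles for o-organoid and blue squares for crypt, open where not well above background. Apart from Slc3a2, the red circle lies right of the blue square, from 0.12 (Sc5d) to at least 7.65 (Chac1).

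Promoter sequence was compared for lists with large shared differences and for some others. The windows are the 250 bases before a gene's start in RefSeq (build GRCm38.p6), searched on both strands, and a match is a run of letters, not a bound site. The HNF4-type motif was in 0 of 12 fat uptake genes and 2 of 13 brush border genes, against 0.45% of all genes. The cyclic-AMP-type motif was in 2 of 17 immediate early genes (1.77% of all genes) and the E-box in 5 of 14 circadian genes (6.86%). The metal-type motif was in 7 of 9 metallothionein and zinc genes, against 47.2% of all genes. The ATF4-type motif TGATGNAA was in the window of 6 of the 19 amino acid response genes with a window (31.6%), against 3.91% of 27025 genes. It is shown in capitals for Chac1 and for 2 members picked after their values were seen, Asns and the cystine carrier Slc7a11 (at least 7.53-fold higher), to give the reader its setting: chr2:119350992-119351241 (plus strand) for Chac1, chr6:7693210-7693459 (minus strand) for Asns and chr3:50443614-50443863 (minus strand) for Slc7a11.
Chac1: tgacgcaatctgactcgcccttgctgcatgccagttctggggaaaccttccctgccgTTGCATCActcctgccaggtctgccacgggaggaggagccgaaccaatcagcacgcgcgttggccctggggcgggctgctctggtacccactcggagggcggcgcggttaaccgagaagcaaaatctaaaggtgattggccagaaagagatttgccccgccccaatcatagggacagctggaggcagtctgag
Asns: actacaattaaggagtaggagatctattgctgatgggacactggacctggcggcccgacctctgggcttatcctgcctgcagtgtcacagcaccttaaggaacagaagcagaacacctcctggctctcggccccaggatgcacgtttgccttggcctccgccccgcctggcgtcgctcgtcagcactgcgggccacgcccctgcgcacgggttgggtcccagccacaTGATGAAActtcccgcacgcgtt
Slc7a11: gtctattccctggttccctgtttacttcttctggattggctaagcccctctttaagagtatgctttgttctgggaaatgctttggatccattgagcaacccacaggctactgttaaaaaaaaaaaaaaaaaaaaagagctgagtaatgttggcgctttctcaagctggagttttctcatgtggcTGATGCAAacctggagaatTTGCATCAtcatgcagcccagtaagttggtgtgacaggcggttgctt
Slc7a11 held 2 matches and the others 1 each; in Chac1 the letters lie on the opposite strand, 193 bases before the start.

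Other stress lists lay close to equal. ER chaperones, which fold secreted proteins, had a median of -0.39, with 0 of 18 members at least 2-fold higher. Manf, a secreted ER stress protein, was 2.45-fold lower (1.53, against 2.83) and Creld2 2.40-fold lower (3.12, against 4.38). Hspa5, the main chaperone of the ER, stood at 4.90 against 5.65 on the crypt array. Heat shock genes had a median of -0.16, and 12 of 13 lay within 2-fold. The exception was Hspb1, a small heat shock protein above background only on the crypt array, at least 6.22-fold lower. The heat shock median was 0.03 with the percentile over probes above background on both arrays. Among 16 measured p53 targets 2 were higher, Phlda3 (7.85-fold) and the stress cytokine Gdf15 (6.74-fold), and 2 lower, the death receptor Fas (7.24-fold) and Sesn1 (2.73-fold).

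Cholesterol synthesis genes were higher as a group. SREBP factors, released when sterols are low, switch on the enzymes that build cholesterol and the receptor that imports it. Of 21 members 19 were at least 2-fold higher, and the median was 1.53. Of the sterol ring enzymes, Lss was 6.52-fold higher (1.76, against -0.94), Nsdhl 4.61-fold (1.36, against -0.85) and Cyp51 4.17-fold (0.30, against -1.76). Mvd, of the mevalonate part, was 4.50-fold higher. Sc5d, which acts late in the pathway, lay within 2-fold (0.12).

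Fatty acid synthesis genes were higher in part: 7 of 16 measured members were higher and 1 lower. The largest differences were those of 2 desaturases, which put double bonds into fatty acids. Scd1 stood at 2.27 against -2.89 on the crypt array, 35.7-fold higher, and Scd2 at 6.15 against 1.77, 20.8-fold higher. Fads1 was 3.56-fold and the synthase Fasn 3.18-fold higher, and Gpam, which starts glycerolipid synthesis, at least 4.49-fold. Acacb, the carboxylase at mitochondria, was 3.13-fold lower. The desaturase Fads2 differed by 0.46 (other probe 1.20), the elongases Elovl5 and Elovl6 by 1.19 and -0.97, and the carboxylase Acaca by 0.87. With normexp background correction Gpam lost its 2-fold call (0.92). Fatty acid oxidation lay on the other side. Of 17 measured PPAR targets and oxidation genes, 10 were at least 2-fold lower and 1 higher, with a median of -1.53. Pdk4, which blocks the entry of glucose carbon into mitochondria, was above background only on the crypt array (0.29) and at least 39.1-fold lower. Cyp4a10, a fatty acid hydroxylase, was 33.7-fold lower (-4.05, against 1.03) and Ppargc1a, a coactivator of mitochondrial genes, 5.46-fold (-1.76, against 0.68). The 1 higher member was the thioesterase Acot1, 3.12-fold.

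The NF-Y-type motif CCAAT was in the windows of 14 of 14 cholesterol synthesis genes with a window, against 37.5% of all genes, and in 14 of 16 mitosis genes (87.5%). NF-Y is known as a partner of SREBP at sterol genes. The mitosis genes held the same letters and none of them differed by 2-fold between these arrays. The SREBP-type motif TCACNCCAC was found in 1 of the 14, Hmgcs1, and in 0 of 14 fatty acid synthesis genes, against 1.225% of all genes. Windows of the 2 sterol enzymes with the largest differences, with the motif in capitals, are chr10:76531355-76531604 (plus strand) for Lss and chrX:72918271-72918520 (plus strand) for Nsdhl.
Lss: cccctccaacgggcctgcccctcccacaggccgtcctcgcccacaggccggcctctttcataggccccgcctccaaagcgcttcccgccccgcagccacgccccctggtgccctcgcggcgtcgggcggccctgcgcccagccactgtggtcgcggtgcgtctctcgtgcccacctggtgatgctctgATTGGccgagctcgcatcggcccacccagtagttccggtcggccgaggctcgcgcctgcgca
Nsdhl: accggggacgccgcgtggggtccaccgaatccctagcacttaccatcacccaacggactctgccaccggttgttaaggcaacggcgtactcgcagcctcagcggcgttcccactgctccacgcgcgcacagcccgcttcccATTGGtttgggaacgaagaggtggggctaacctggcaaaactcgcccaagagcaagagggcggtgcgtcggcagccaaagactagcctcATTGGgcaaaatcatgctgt

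Glycolysis and hypoxia genes were higher in part. Of 26 members 15 were at least 2-fold higher and 0 lower, with a median of 1.11. Ero1a, an ER oxidase known as a hypoxia target, stood at 0.73 against -3.03 on the crypt array, 13.5-fold higher. The collagen hydroxylase P4ha2 was 12.1-fold higher (0.03, against -3.56), Bnip3, a mitophagy receptor, 5.96-fold, Ankrd37 5.79-fold and Ndrg1 5.76-fold. Adm, the vasodilator adrenomedullin, was at least 5.43-fold higher, but differed by 0.80 with normexp. Of the core glycolytic enzymes, named after their values were seen, Hk2 (1.79), Pgk1 (1.27) and Aldoa (1.09) were higher. Pkm (0.77), Eno1 (0.66), Gpi1 (0.16), Pgam1 (0.14), Tpi1 (0.12), Gapdh (-0.11), Ldha (-0.35) and Pfkp (-0.40) lay within 2-fold. The letters ACGTG, the core of hypoxia elements, were in the windows of 17 of 25 members (68%), against 18.5% of all genes; these include Ero1a (difference 3.76) and also Ldha. Respiratory chain genes stood slightly below: all 15 measured members were lower by less than 2-fold, with a median of -0.62, down to -0.94 for Cycs, the carrier of electrons to the last complex. The 13 genes of mitochondrial DNA had a median of -0.52. Ribosomal protein genes lay within 2-fold in 18 of 18 cases (median 0.27), and genes that build ribosomes had a median of 0.72, with the nucleolar chaperone Npm1 2.94-fold higher.

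Redox genes and some metallothioneins were higher. Of 18 genes of the Nrf2 type, which detoxify oxidants and electrophiles, 8 were higher and 1 lower. The carbonyl reductase Cbr3 stood at 5.83 against 0.99 on the crypt array, 28.6-fold higher. Hmox1, which degrades haem, was 18.5-fold higher by its brightest probe and differed by 1.79 by its other probe. Akr1b8, an aldo-keto reductase, was 7.32-fold higher, and its close relative Akr1b7 6.77-fold lower (0.84, against 3.60). Of 15 conjugating enzymes 5 were higher and 4 lower (median -0.15), and the glutathione transferase Gsta3 was 17.8-fold higher (6.13, against 1.98), and its other probe differed by 4.68. Metallothioneins bind zinc and copper. Mt2 stood at 9.02 on the o-organoid array against 4.43 on the crypt array, 24.0-fold higher, and Mt1 at 8.62 against 6.66, 3.87-fold higher. Mt4, known from stratified epithelium, was read only on the o-organoid array (3.98) and was at least 362-fold higher, the largest bound among higher genes. Mt3, first known from brain, was 2.33-fold lower (-1.03, against 0.18; -0.96 with normexp). In the metallothionein and zinc list, which leaves out Mt4, 2 of 10 were higher and 4 lower, with a median of -0.45. The zinc importer Slc39a4 was 13.4-fold lower (2.55, against 6.30). Mt1 and Mt2 were higher still on the y-organoid array, at 9.64 and 9.79, and Mt4 stood at 1.82 there. On the whole intestine array Mt2 stood at 7.32.

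Xenobiotic enzymes were lower on balance. Of 20 measured cytochrome P450 and receptor genes, 9 were at least 2-fold lower and 1 higher. Cyp3a25 stood at 0.89, 8.62-fold lower than in crypt, and Cyp3a11, the main drug hydroxylase of this family, at 2.23 against 5.09, 7.27-fold lower. Cyp2b10 was 4.51-fold lower (4.59, against 6.76). Each of these 3 enzymes was lower still on the y-organoid array, at -1.10, -1.45 and -1.15. The 1 higher gene was Cyp1a1 (-2.61, against -3.64), an enzyme that the aryl hydrocarbon receptor switches on.

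Stem cell genes were higher while the cell cycle lists lay close. Of 14 markers of crypt base stem cells, 9 were at least 2-fold higher and 1 lower, with a median of 1.15. Lgr5, the R-spondin receptor of the title, stood at 2.32 against -0.39 on the crypt array, 6.55-fold higher, Rgmb at 2.61 against 0.70, 3.75-fold, and the growth regulator Myc at 1.44 against -0.86, 4.93-fold. Tnfrsf19 was 11.8-fold higher by its brightest probe and 0.83 on the log2 scale by its other. The RNA-binding protein Msi1 was the lower gene, 6.25-fold (-1.13, against 1.51), but differed by -0.14 with the median over its probes. Among 7 reserve stem cell markers, 5 were higher: Clu (39.3-fold), Mex3a (4.09-fold), Hopx (2.79-fold), Lrig1 (2.73-fold) and Bmi1 (2.34-fold). The other probes of Hopx, Lrig1 and Bmi1 differed by 1.40, 0.70 and 0.74, the last 2 inside the 2-fold limit. By contrast, 19 of 19 measured S phase genes and 19 of 19 mitosis genes lay within 2-fold, with medians of 0.54 and 0.55. Mki67, a marker of dividing cells, stood at 4.37 against 4.23. Replication-dependent histones were uneven: 6 of 14 were lower, led by H2ac6 (11.7-fold), and 1, the linker histone H1f4, was 2.75-fold higher. Histone genes have close relatives, so single members are uncertain.

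Signals that feed the niche differed gene by gene. Of 13 Wnt and R-spondin ligands, 9 were above background on neither array. Wnt3, the ligand Paneth cells supply, was read only on the o-organoid array (-2.17) and was at least 3.92-fold higher. Wnt9b was at least 2.21-fold higher too, Wnt6 at least 3.70-fold lower and Wnt4 2.34-fold lower. With normexp background correction all 4 lay inside the 2-fold limit, at 0.82, 0.10, -0.83 and -0.72. Among 13 measured Wnt feedback genes 2 were higher and 2 lower. Nkd1 was 2.28-fold and Znrf3, which removes Wnt receptors, 2.50-fold higher, and the feedback gene Axin2 lay just under the 2-fold limit (-1.59, against -2.59). Nkd1 (0.60) and Znrf3 (0.58) lost their calls with normexp. Sfrp5, a secreted Wnt antagonist, stood at -4.14 against 2.35 on the crypt array, 89.6-fold lower. The Wnt deacylase Notum was 2.98-fold lower (0.37, against 1.94). The Wnt ligand median, -0.04, took the other sign with quantile normalization (0.07), with the deposited table (0.08) and with the percentile over probes above background on both arrays (0.14).

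Of the EGF family, Areg was 9.21-fold higher (0.90, against -2.30) and Btc at least 6.42-fold higher, while Nrg4 was 7.39-fold lower (-4.11, against -1.23) and its other probe differed by -2.35. Hbegf was 2.37-fold lower, and the receptors Egfr, Erbb2 and Erbb3 lay within 2-fold. In the BMP list, with a median of -0.24, 5 of 13 measured genes were lower and 1 higher. The lower genes included the inhibitory Smads Smad7 (at least 11.9-fold) and Smad6 (10.2-fold), which BMP and TGF-beta signals induce, and the targets Id3 (0.56, against 2.85) and Id1 (1.30, against 3.34). The target Id2 differed by 0.13. Bmp7 was 2.63-fold higher. In the Notch list 8 of 12 measured genes lay within 2-fold, with the ligand Jag2 at least 4.26-fold and Lfng, which tunes Notch receptors, 3.31-fold higher. Hes5 was 2.39-fold higher and the receptor Notch1 2.27-fold lower. With normexp these 4 lay inside the limit, at 0.77, 0.94, 0.42 and -0.71.

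Genes linked to fetal-like and repairing epithelium were higher in 6 of 10 measured cases, with a median of 2.21, although 4 of the 14 members were read on neither array and the median was 0.65 with no filter on dim probes. Anxa1, an annexin that damps inflammation, was at least 25.7-fold higher (0.16, not above background on the crypt array at -6.03). Ly6a was 8.31-fold and Anxa3 7.23-fold higher. Il33, an alarm cytokine, was the 1 lower member, at least 12.9-fold lower. On the whole intestine array Clu (5.84) and Ly6a (2.40) were above both arrays. Of YAP and TEAD targets 5 of 13 were read on neither array, 3 were higher, Msln (at least 5.62-fold), Ajuba (at least 5.43-fold) and Ccn1 (2.30-fold), and 1 lower, Cyb5r3 (2.91-fold). Ajuba (0.94) and Ccn1 (0.78) lost their calls with normexp, and the list's median of 0.72 was -0.11 with no filter on dim probes.

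Most absorptive genes were lower. The crypt array carried such transcripts near whole intestine levels, as given above, and the part of villus cells in these values, and in the stem cell values, was not tested. Of 15 brush border hydrolases 14 were at least 2-fold lower, with a median of -3.03. Lct, the lactase, stood at -0.43 on the o-organoid array against 7.20 on the crypt array, 197-fold lower. Tmprss15, the enteropeptidase that activates trypsin, was at least 27.4-fold lower. Anpep, an aminopeptidase, was 17.0-fold lower (3.94, against 8.03). Sis, the sucrase, was 4.63-fold lower, and the alkaline phosphatase Alpi, at 4.01 against 4.87, was the 1 member within 2-fold.

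Fat handling was lower in 15 of 17 members (median -2.30), with the apolipoproteins Apoa1 45.3-fold, Apoa4 14.5-fold and Apoc3 10.2-fold lower. The other probe of Apoc3 differed by -1.49. Scarb1, a lipoprotein receptor, was the 1 higher member, 4.31-fold, and its other probe differed by 2.66. Of 14 sugar, peptide and amino acid transporters 11 were lower. The peptide carrier Slc15a1 was at least 24.9-fold, the glucose exit Slc2a2 12.1-fold and the fructose carrier Slc2a5 5.57-fold lower. Slc2a1, the glucose carrier of growing cells, was the 1 higher member (2.04, against 0.02). In the list of iron, bile acid and vitamin uptake, 8 of 15 were lower and 3 higher. Cubn, the receptor for cobalamin with its binding factor, was above background only on the crypt array (3.13) and at least 281-fold lower. The bile acid exporter chains Slc51b and Slc51a were 38.4-fold and 13.2-fold lower, and the folate carrier Slc46a1 20.6-fold. Bco1, which cleaves carotene to retinal, was read only on the o-organoid array and at least 7.78-fold higher. The iron reductase Cybrd1 was 4.18-fold higher and the bile acid importer Slc10a2 at least 2.37-fold (0.39 on the log2 scale with normexp).

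Ion and water transport followed in part, with 10 of 18 members lower and 2 higher. The water channel Aqp8 stood at -3.05 against 3.11 on the crypt array, 71.2-fold lower. The chloride channel regulator Clca4a was 52.2-fold and the sodium-proton exchanger Slc9a3 16.3-fold lower. Aqp4, a basolateral water channel, was 3.22-fold higher.

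Enterocyte and regional factors were lower in part. Isx, which represses Bco1 and Scarb1 in the gut, stood at -1.42 against 4.45 on the crypt array, 58.7-fold lower. The factors Maf (27.6-fold), Osr2 (at least 14.5-fold), Creb3l3 (7.24-fold) and Klf4 (4.63-fold) were lower too. Master factors of the intestine, chosen after their values were seen, lay within 2-fold: Hnf4a at 5.59 against 6.20, Cdx2 at 3.33 against 3.73 and Gata4 at 2.35 against 2.27. In all, 8 of 18 were lower and 0 higher. Among epithelial structure genes, Krt20, a keratin of mature surface cells, was 42.6-fold lower (1.75, against 7.16) and the microvillus protein Vil1 4.66-fold. Krt23 was 4.84-fold and Cldn2, a cation pore of crypt junctions, 2.79-fold higher.

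**Figure D4:**
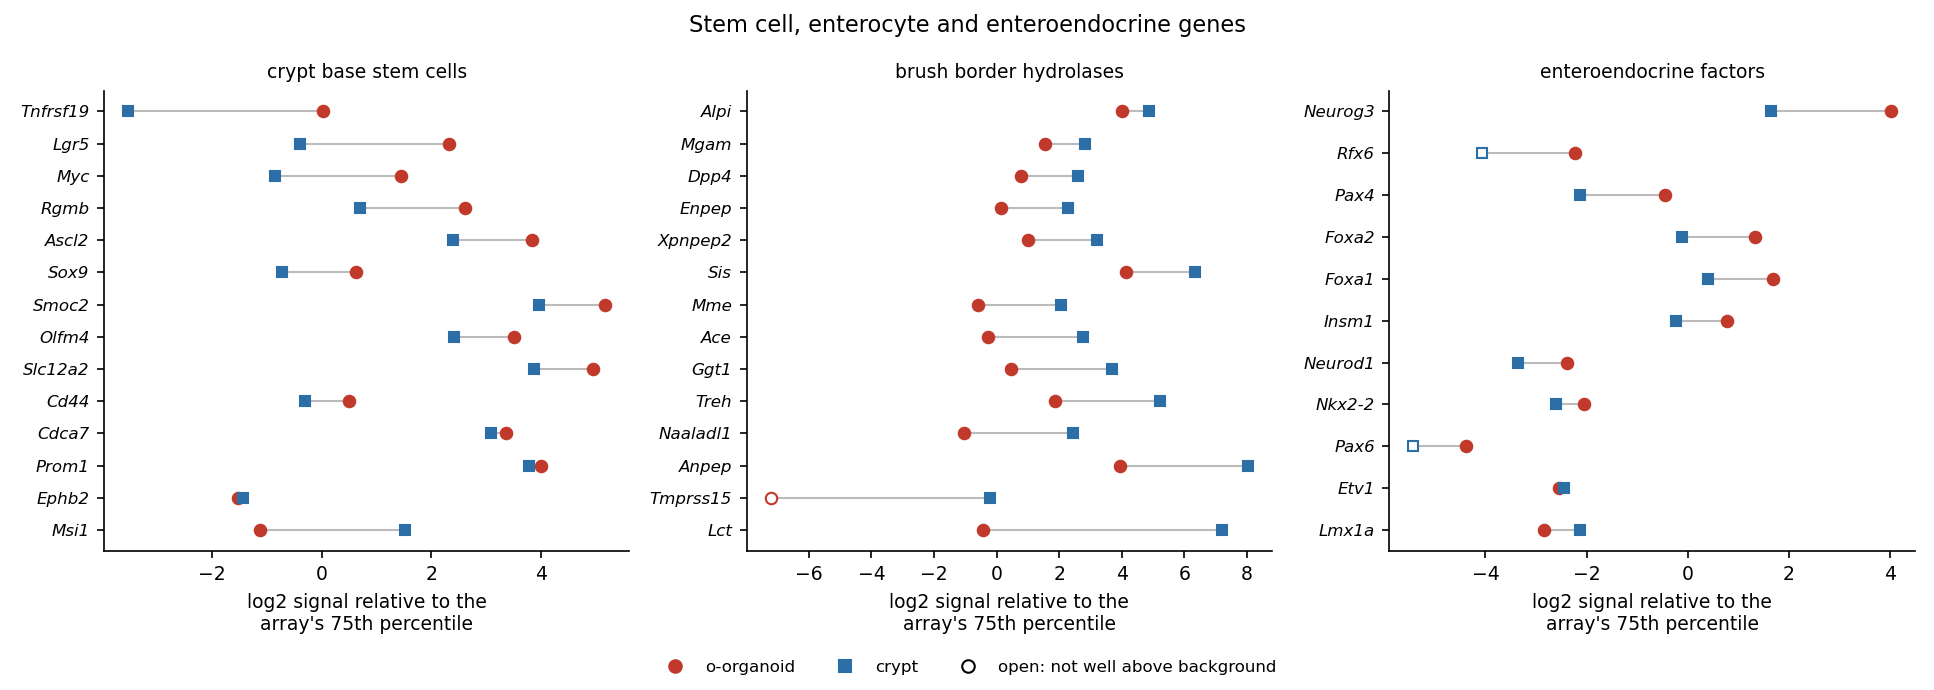
Signal (log2, relative to the array's 75th percentile) of stem cell markers, brush border hydrolases and enteroendocrine factors, red circles for o-organoid and blue squares for crypt, open where not well above background. Lgr5 is higher on the o-organoid array (2.32, against -0.39), every hydrolase shown is lower, and Neurog3 is higher (4.02, against 1.65).

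Among secretory lineages, enteroendocrine factors were higher in part and many mature products lower. Of 12 measured factors of the enteroendocrine lineage, 6 were higher and 1 lower, with a median of 0.99. Neurog3, which starts the lineage, stood at 4.02 against 1.65 on the crypt array, 5.16-fold higher. Rfx6 was at least 3.54-fold (0.55 on the log2 scale with normexp), Pax4 3.19-fold, Foxa2 2.70-fold and Foxa1 2.43-fold higher, and Insm1, the sixth, 2.02-fold. Of 18 hormone and granule genes, 11 were lower and 0 higher, with a median of -1.24. Nts, neurotensin, stood at -2.50 against 1.20, 13.0-fold lower. Sct, secretin, was 6.33-fold, Sst, somatostatin, 6.03-fold, Gcg, proglucagon, 5.09-fold and Cck, cholecystokinin, 3.43-fold lower. The granin Chgb lay within 2-fold (5.52, against 5.23).

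Paneth cell genes were lower in 8 of 17 measured members, with a median of -0.93. Defa31, an alpha-defensin, was 59.3-fold lower (0.56, against 6.45), yet Defa29 was 5.04-fold lower and 5 other alpha-defensins ran from 2.75-fold lower (Defa26) to 1.40-fold lower (Defa3). Alpha-defensins are close relatives, and single members are uncertain. Lyz1, lysozyme, stood at 6.99 against 8.03, and the protease Mmp7 at 2.79 against 3.81. Nupr1, also an amino acid response gene, was the 1 higher member, 8.19-fold.

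In the goblet list, 7 of 15 measured members were lower and 1 higher, the trefoil peptide Tff1 (at least 5.06-fold). The membrane mucin Muc3 was 96.2-fold lower (-1.30, against 5.29) and the lectin Zg16 30.8-fold (3.88, against 8.83). Clca1, a mucus protein, had -0.69 by its brightest probe and -5.04 by its other, and Fcgbp -1.66 and -0.22, so those values depend on the probe. The file places the Clca1 probes far apart, the brightest from chr3:144393040 and the other from chr3:144667617 (mm9). They may read different transcripts, and which of them reads the mucus gene was not tested. The count takes the brightest. Spdef, the goblet factor, lay within 2-fold. Reg lectins, which act on gut bacteria, were lower: Reg3b stood at -1.31 against 6.69, 256-fold lower, Reg3a was 31.9-fold and Reg3g 18.9-fold lower. The IgA carrier Pigr was 4.15-fold lower. Tuft cell genes were lower in 9 of 15 measured cases, among them Siglecf (7.32-fold) and Alox5 (7.01-fold), while Dclk1, the usual marker, stood at -4.04 against -3.30 and Pou2f3, the lineage factor, was read only on the o-organoid array, near its limit. Siglecf and Alox5 are also known from blood cells, many of whose markers were lower on the o-organoid array as given above. The part of those cells in the tuft values was not tested.

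For the acetylcholine genes of the series title, the signals were mostly low. Of 17 genes of synthesis and breakdown, 11 were above background on at least 1 array, 2 were lower and 0 higher. Chat, which makes acetylcholine, Ache, which degrades it, and Slc5a7, the neuronal choline carrier, were above background on neither array. Bche, the other cholinesterase, stood at 3.26 against 3.99 on the crypt array. Crat, carnitine acetyltransferase, was 3.17-fold lower (-3.11, against -1.45). The choline carriers Slc44a2 (0.99), Slc44a3 (0.86), Slc44a1 (-0.26) and Slc44a4 (-0.69), the kinases Chka (-0.54) and Chkb (-0.84), and Lynx1 (0.02) lay within 2-fold. Slc18a3, the vesicle carrier, was read only on the o-organoid array at -4.59 and has no fold. Slc22a2, Slc22a3 and Slurp1 were above background on neither array.

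Receptor signals were lower still, and 11 of 21 were above background on neither array. Chrm3, the muscarinic receptor known from gut epithelium and glands, was read only on the o-organoid array (-2.33) and was at least 4.57-fold higher; the y-organoid array had it at -1.49. With normexp background correction its difference was 0.60, inside the 2-fold limit. Chrm1 (at least 4.18-fold), Chrna10 (at least 5.98-fold) and Chrnb4 (at least 2.75-fold) were read only on the crypt array, at -2.94, -2.42 and -3.54; Chrm1 (-0.92) and Chrnb4 (-0.71) also lost their calls with normexp. Chrna2 (-0.78) and Chrna4 (-0.41) were read on both arrays. Chrnb1 (at least 1.92-fold higher), Chrm4 (at least 1.62-fold higher), Chrna9 and Chrnb2 were read only on the o-organoid array; the last pair lie at the limit and have no fold. Signals this low carry the largest spot error, an SD of 0.24 for a difference.

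Antigen presentation and interferon genes were among the lists with the lowest medians. Class II molecules show peptides to helper T cells, and gut epithelium makes them under interferon. Of 8 measured members 7 were lower, with a median of -5.23. H2-Ab1 stood at 4.55 on the crypt array and was not above background on the o-organoid array (-5.01), at least 748-fold lower. H2-Eb1 was at least 313-fold lower, H2-DMb1 at least 56.8-fold and H2-Aa at least 24.9-fold. Cd74, the chain that escorts class II molecules, was 241-fold lower (-4.68, against 3.23). The switch gene Ciita was read only on the o-organoid array (-3.76, against -4.30).

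Of 14 genes of class I loading and the immunoproteasome, 13 were lower. Psmb8, an interferon-induced proteasome chain, stood at -4.28 against 3.53 on the crypt array, 225-fold lower. Psmb9 was 28.9-fold, Tap2, a peptide pump, 29.5-fold, H2-Q1 27.1-fold, H2-T3 23.2-fold and Tap1 11.6-fold lower. The class I chain H2-K1, with a second probe at -1.57, was 2.85-fold lower and B2m 3.61-fold. Of 18 measured interferon response genes 17 were lower, and 9 of the 18 were read only on the crypt array. Isg15, a ubiquitin-like protein, stood at -2.87 against 2.63, 45.4-fold lower. The sensor Zbp1 was at least 41.6-fold, Oas1a 21.2-fold with its other probe at -3.90, the factor Irf1 20.7-fold and Irf7 11.5-fold lower.

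For both lead genes the crypt array was itself below the whole intestine array. Whole intestine had Isg15 at 6.56 and H2-Ab1 at 6.43. Blood cells carry class II and interferon genes too. Lyz2, in both the blood cell and the Paneth list, was 4.25-fold lower. Blood cell markers had a median difference of -1.47 over 14 measured members. Several of these values are bounds cut at the detection limit, such as Cd3g (-2.02), so this median cannot be set against that of class II genes. The part of blood cells in these values was not tested.

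**Figure D5:**
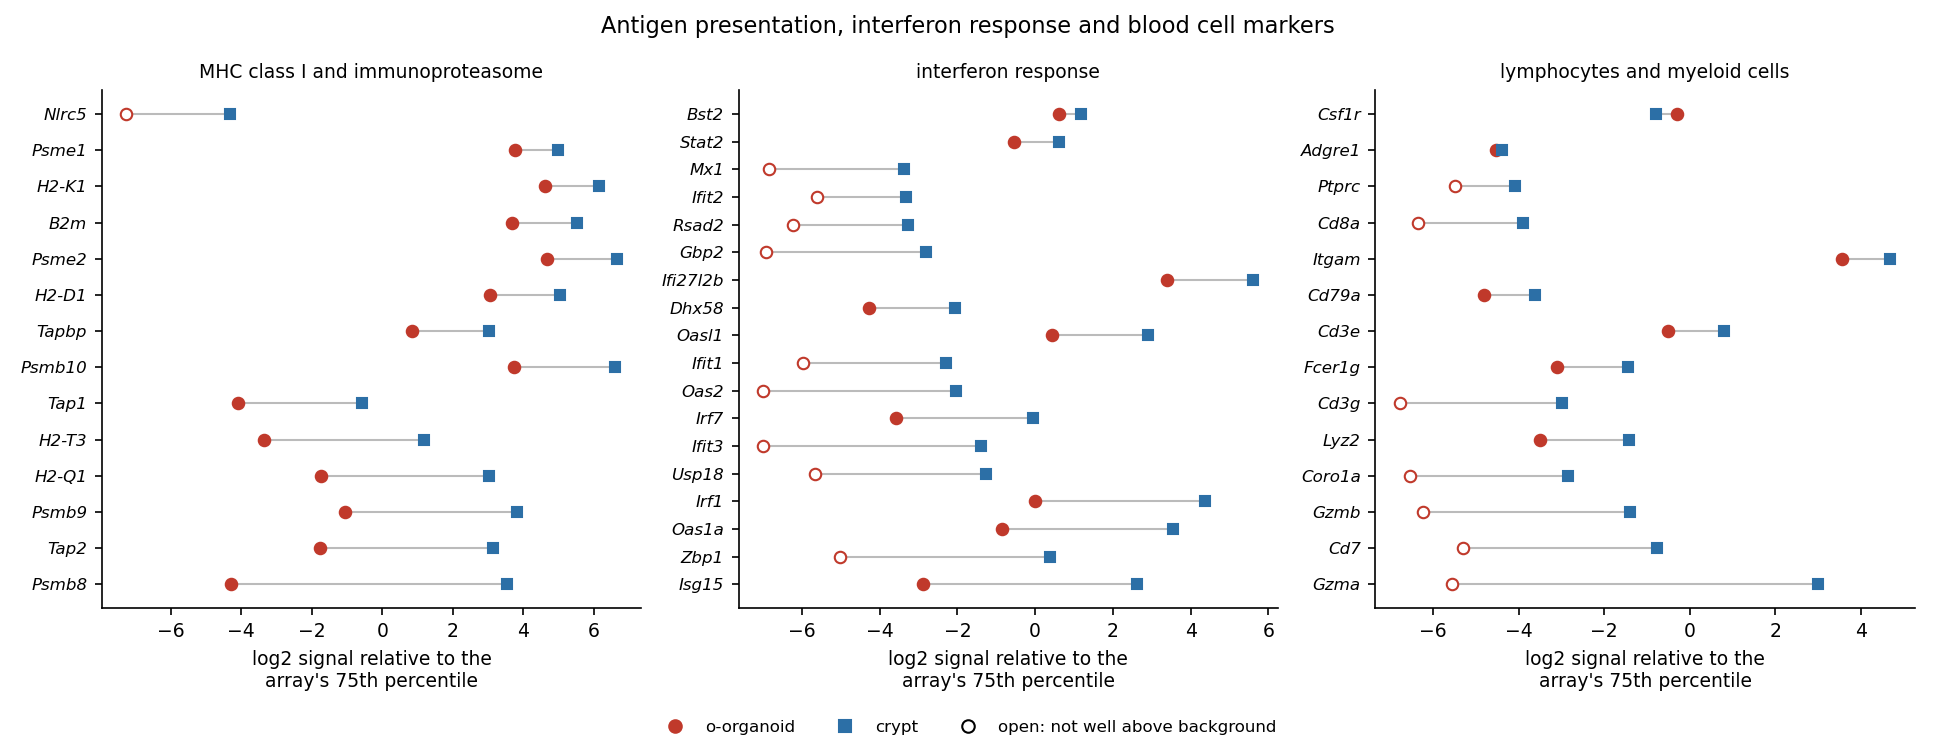
Signal (log2, relative to the array's 75th percentile) of class I and immunoproteasome genes, interferon response genes and blood cell markers, red circles for o-organoid and blue squares for crypt, open where not well above background. In the first 2 panels every red circle lies left of the blue square, from -0.57 (Bst2) to -7.81 (Psmb8).

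The interferon-type motif, GAAA and GAAA with any 2 bases between them, was in the windows of 8 of 12 interferon response genes with a window (66.7%), against 3.46% of all genes, and in 1 of 11 class I and immunoproteasome genes (9.09%). It is shown in capitals, overlapping matches joined, for the strongest difference of the list and for the OAS gene with agreeing probes: chr4:156200819-156201068 (minus strand) for Isg15 and chr5:120907526-120907775 (minus strand) for Oas1a.
Isg15: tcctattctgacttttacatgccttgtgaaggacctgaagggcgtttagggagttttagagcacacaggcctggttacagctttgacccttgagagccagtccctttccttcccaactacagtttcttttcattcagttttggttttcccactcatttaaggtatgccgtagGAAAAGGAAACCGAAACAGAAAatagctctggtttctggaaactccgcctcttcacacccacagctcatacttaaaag
Oas1a: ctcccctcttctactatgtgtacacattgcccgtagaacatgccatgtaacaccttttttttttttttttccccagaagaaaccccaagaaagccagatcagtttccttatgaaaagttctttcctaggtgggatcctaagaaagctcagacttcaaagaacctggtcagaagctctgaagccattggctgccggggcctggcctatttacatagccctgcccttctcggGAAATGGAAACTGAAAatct
Isg15 held 3 matches and Oas1a 2, all within 78 bases of the start.

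Other inflammatory genes were lower in 7 of 14 measured cases and higher in 0. The interleukin gene Il18 stood at -1.16 against 3.45 on the crypt array, 24.4-fold lower, and the Toll-like receptor Tlr1 was at least 7.85-fold lower. Ccl25, a chemokine that draws lymphocytes to the small intestine, was 2.49-fold lower by its brightest probe, but its other 2 probes had a median of 0.10. Immediate early genes, which respond within minutes to growth factors and other stimuli, were lower in 7 of 19 cases: Fos 29.1-fold (-2.65, against 2.22), Fosb 19.4-fold, Zfp36 at least 9.79-fold, Jun 5.49-fold and Dusp1 4.51-fold. Myc was the 1 higher member. Circadian genes had a median of -0.09, with 1 of 14 higher, Per2 (2.07-fold), and 3 lower, Hlf (at least 2.66-fold), Nr1d1 (2.57-fold) and Npas2 (2.40-fold). With normexp Per2 (0.34), Hlf (-0.70) and Npas2 (-0.81) lost their calls. With the deposited table that median was 0.04.

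Of 17 measured adhesion genes 6 were higher and 3 lower, and of 14 actin genes 5 were higher and 1 lower. Plaur, the urokinase receptor of migrating cells, stood at 0.15 against -4.08 on the crypt array, 18.8-fold higher, and the laminin chains Lamc1 and Lamb3 were 7.37-fold and 3.27-fold higher, while Lama3 was 3.68-fold lower. Acta1, the skeletal muscle actin, was 43.9-fold higher (2.90, against -2.55), although the smooth muscle genes Acta2, Actg2 and Myh11 were above background on neither array. The actin crosslinker Flna was 7.25-fold higher and Tpm2 at least 8.11-fold lower. In the polyamine and arginine list 2 of 15 were higher and 3 lower. Pycr1, which makes proline, was 7.57-fold and Srm, the spermidine synthase, 4.71-fold higher, with Srm's other probe at 2.19, while Arg2, an arginase, was 5.49-fold lower. Of 8 measured prostaglandin genes 1 was higher and 3 lower. Slco2a1, a prostaglandin carrier, was 6.76-fold lower, and Ptgs2 was above background on neither array.

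Among single genes outside the lists, those with the largest differences came from many functions. Emp2, a membrane protein that acts on integrins, stood at 1.82 against -3.44 on the crypt array, 38.2-fold higher. Rgcc, a cell cycle regulator, was 24.5-fold higher (4.75, against 0.13), and Macc1, known as a regulator of the growth factor receptor Met in colon cancer, 19.4-fold (1.66, against -2.62). Slamf9, Moxd1 and the calcium-binding S100a5 were 22.9-fold, 22.1-fold and 20.0-fold higher. The annexin Anxa10 and the adenylate kinase Ak4 were read only on the o-organoid array, at least 44.7-fold and 42.2-fold higher. The y-organoid array had Emp2 at 2.65, Rgcc at 4.38 and Macc1 at 1.61, each above its crypt value.

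On the lower side, Unc93a stood at -4.39 against 3.22 on the crypt array, 195-fold lower. Slc5a4a, of the sodium-glucose carrier family, was 187-fold lower (-4.80, against 2.75). Pdzk1, a scaffold of brush border transporters, was 139-fold lower (-2.24, against 4.88) and its other probe differed by -7.16. The nuclease Dnase1 was 102-fold lower (-0.97, against 5.70) and Podn, a matrix proteoglycan, 97.6-fold (-4.58, against 2.03). Bst1, a surface enzyme that cleaves NAD, and Rps4l, a relative of a ribosomal protein gene, were read only on the crypt array, at least 246-fold and 274-fold lower. Dnase1 and Pdzk1 were near their crypt values on the whole intestine array, at 5.65 and 4.93.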

How the data were processed

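The samples were 4 mouse RNA samples, each on 1 single-colour Agilent array, of which o-organoid and crypt were compared; whole intestine and y-organoid were read for level only. The intensity of each spot was deposited as scanner output of Feature Extraction 10.7.3.1, per the file headers, background-subtracted within the array, with mm9 coordinates. The authors deposited a value table too, a ratio of each spot to 1 constant per array (36.9 for o-organoid, 29.5 for crypt; column medians 1.0). It was used as an alternative.

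Here log2 of the processed intensity was taken minus log2 of the array's 75th percentile (641 for o-organoid, 469 for crypt). Control and outlier spots (165 and 108) were left out and spots of a probe averaged. No spot was saturated, and 55.1% and 51.9% of spots were well above background. A gene was read by its brightest probe and named by RefSeq (GRCm38.p6, names and promoters only): the accession named 27318 probes, the symbol 3523 and a synonym 551, and 8037 stayed under the file's name. With 1 array a side no test was possible, and calls are 2-fold and 4-fold differences. The number of arrays limits the precision.

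The 58 lists (927 genes) and their members were chosen with earlier results of these data known. Named genes are the 15 largest differences and 6 largest bounds each way, up to 6 members of each list, cell type markers, all acetylcholine genes, the 3 largest each way among genes read by repeat probes, and members that a count of 5 or fewer takes in. Named outside that rule, after their values were seen, were Cd8a, Hmgcs1, Mki67, Egfr, Erbb2, Insm1, Defa26, Defa3, Spdef, H2-K1, B2m, Irf7, Fads2, Elovl5, Elovl6, Acaca, Id2 and those said so in the text. A few genes the rule takes in are not reported here, and the dot plots omit them. The settings varied were the background correction (normexp, offset 50), quantile normalization, the deposited table, another percentile, no filter on dim probes, the median over probes, no repeat probes and no outlier flags. Tools were Python 3.11.15, numpy 2.4.6, pandas 2.3.3, matplotlib 3.10.9, R 4.3.3 and limma 3.58.1.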

Additional observations from a re-analysis of the deposited data

How the results depend on the processing

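Against 1462 genes at least 2-fold higher and 2341 lower, and 301 and 756 past 4-fold, normexp background correction gave 767, 1538, 140 and 452, and no filter on dim probes 2336, 3838, 523 and 1141. Under the other 6 alternatives these counts stayed within 1.5 times. The number of lists with a median at least 2-fold higher (6) or lower (14) stayed within 1.5 times under all 8. The median over probes turned the sign of Pip5k1a (-0.37), Ccl25 (0.10) and Itgam (0.92), and leaving out repeat probes that of Itgam (1.16) and St6galnac1 (0.024). List medians changed sign for circadian genes (0.10), endothelium (0.13 there and 0.07 with the deposited table), conjugating enzymes (0.04) and stroma (0.0014) with the other percentile, for M cells (-0.45) and enteric neurons and glia (-0.57) with no filter, and for EGF family genes (0.02) with the median over probes, beside those given above. Of 424 genes with a 2-fold call among list members and named genes, 70 lost it with normexp and between 2 and 26 under each of 5 others. Besides those given above, normexp ended the calls of Cyp1a1 (0.21), Cd8a (-0.62), Mmp7 (-0.87), Cd3g (-0.90), Insm1 (0.91), Carm1 (0.96) and Lyz1 (-0.99), and the median over probes those of Slc10a2 (0.48), St6galnac1 (-0.84), Fcgbp (-0.94), Bmi1 (0.98) and, just under the limit, Hmgcs1. Mmp7 and Cd8a also lost theirs with quantile normalization, the deposited table and the other percentile, Lyz1 with these last 2, Notch1 with the other percentile, and Cyp1a1 and Insm1 with quantile normalization. The causes were not tested. No paired analysis was possible because each group has 1 array. Signals near background limit the dim genes: 471 genes read on 1 array have no fold.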

Other observations

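Gene families, picked after their values were seen, gave counts of the same kind. Apolipoprotein L genes, many of them induced by interferon, were lower by 2-fold or more in 7 of 8 measured members, with a median of -5.73. Apol10a stood at -3.59 against 3.97 on the crypt array and Apol7a at -1.69 against 3.38. Gasdermin C genes, which form membrane pores, were lower in 3 of 3, with Gsdmc at -4.83 against 0.91. Butyrophilin-like genes, whose products hold intraepithelial T cells in the gut, were lower in 6 of 6: Btnl1 stood at 3.20 against 5.95 and Btnl2 at -1.75 against 2.65. Among interferon-inducible GTPases 6 of 11 were lower, with Ifi47 at -4.67 against 1.77 and Igtp at -4.85 against 1.09. Members of these families share sequence, so single values are uncertain.

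Other families were higher. Secretoglobin 2B genes were higher in 4 of 5 measured members, led by Scgb2b2 (0.82, against -3.36). All 3 Phlda genes were higher, with Phlda1 at 4.02 against 0.49. Nucleoside carriers lay on both sides: the sodium-driven Slc28a3 (-1.36, against 1.48) and Slc28a2 (-3.14, against 1.05) were lower, and the equilibrative Slc29a1 (2.35, against 0.64) and Slc29a2 (-0.56, against -2.49) higher. Of 12 annexins 5 were higher and 1 lower: Anxa2 was lower (5.55, against 6.71) while Anxa5 was higher (1.06, against -0.34).

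The largest difference on the higher side measured on both arrays came from 1 of 3 probes assigned to Pip5k1a, a lipid kinase gene. That probe, placed at chr3:94901128-94901187 (mm9, minus strand) by the file, stood at 8.02 on the o-organoid array against 2.18 on the crypt array, with 7.67 on the y-organoid and 4.75 on the intestine array. The other probes differed by -0.37 and 0.30. The bright probe is shown because the value rests on it alone. It shared a run of 11 bases with the Mt4 probe, and runs of 5 or 6 with those of Mt1, Mt2 and Mt3. The probe of Acta1, an unrelated gene, also shared a run of 6. Only probe sequences were compared, so a match elsewhere in a metallothionein transcript could not be seen. Which transcript it reads was not tested, so the value may not be that of Pip5k1a.
Pip5k1a bright probe: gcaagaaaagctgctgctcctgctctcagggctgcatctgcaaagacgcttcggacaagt
Plagl1, a zinc finger gene, was at least 32.0-fold higher by its brightest probe. Another of its probes, also read only on the o-organoid array, stood at 0.18 against -6.48, a bound of 4.71 on the log2 scale. Its probes measured on both arrays differed by 0.27 and 0.06.

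Of 190 genes read by a probe with a dinucleotide repeat of 12 or more bases, 39 were at least 2-fold lower and 1 higher, Carm1 (1.68, against 0.66); for repeats of GA it was 13 lower and 0 higher of 37. Among the lowest were 1700122C19Rik (-1.75) and St6galnac1 (-1.70). Brms1l (0.96) and Slc1a4 (0.95) followed Carm1 on the higher side.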
